A study of Mus musculus with 10 samples.

Results

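Klf9 is a Krüppel-like factor, a transcription factor with zinc fingers that bind GC-rich DNA. In hippocampal neurons it is known as a gene that responds to glucocorticoid and thyroid hormone and as a regulator of neuronal maturation. The places where it associates with chromatin are mapped by recovering the factor together with the DNA fixed to it, and regions with an excess of recovered fragments are then listed. The width of such a region reflects fragment length and the way it was called as well as the extent of the bound DNA.

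The broad Klf9 intervals are the widest stretches in a part of the deposited list, once rows that nearly touch are put together. Rows on chromosomes 7 and 11 were left out, successive rows with a gap under 340 bp were joined, and a joined interval counted as broad when it spanned at least 4 steps of 340 bp, end to end. The step of 340 bp is that of a grid on which most boundaries of the list lie. Intervals in a window of 1 Mb that held 10 or more deposited rows were also left out. In all 256 intervals met this rule, from 361 deposited rows, out of 3516 rows and 3178 joined intervals in the series. On the 18 chromosomes used, 2141 joined intervals passed the chromosome and window conditions and are called eligible here, so that the broad ones were 12.0% of them (exact Clopper-Pearson 95% interval 10.6 to 13.4%) and 1885 were narrower.

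The list came from HT22, an immortalised line of mouse hippocampal neurons, stably transfected with 1 or both of a pair of constructs. The control line, HT22[BirA], carries pSV40-zeo-BirA-V5 and was kept in zeocin. The second line, HT22[BirA/FLBIO-Klf9], also carries pEF-FLBIO-Klf9 and was kept in zeocin with puromycin, so both lines carry BirA, an enzyme that attaches biotin, and tagged Klf9 in the second line comes from an introduced construct. Each line gave 1 input library and 4 streptavidin pulldown libraries, 10 libraries in all. Whether either line is a single clone is not given in the sources used here. One list stands for all libraries and gives only positions, so no value below has a replicate error, depth or control signal behind it, no markers of the cell line could be checked, and no test between the lines was possible. Intervals are neighbours on shared chromosomes and not replicates, and the intervals quoted for shares and medians cover counting error only. Positions are given as deposited, and the submitters' processing notes name mm8 as the build. No genome of that build was used here, so the intervals carry no gene, exon or promoter names, and none of their sequences is shown.

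The members were chosen by width, which is therefore described without a test. The widest of the 256 measured 3590 bp. The median was at the threshold of 4 steps, with an upper 95% bound from order statistics of 1429 bp, and the upper quartile was 1700 bp. Narrower eligible intervals had a median of 919 bp. The broad intervals covered 397 kb, or 19.4% of the bases in eligible intervals. Widths were not spread evenly: 138 of the 256 (53.9%) measured exactly 4 steps of 340 bp. A further 32 measured 5 steps (1700 bp), with 10 at 6 steps (2040 bp) and 4 at 7 steps (2380 bp). The other 72 intervals were not a whole number of steps wide, and 25 intervals (9.77%) were 2040 bp or wider.

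The majority of the set therefore sat on the threshold itself. The 5 narrowest members in genomic order were intervals of exactly 4 steps on chromosome 1, at chr1:37373821-37375180, chr1:88189541-88190900, chr1:90532481-90533840, chr1:95584201-95585560 and chr1:127387801-127389160. Just under the threshold stood chr4:133558802-133560160 at 1359 bp, chr8:11555581-11556931 and chr17:17530741-17532091 at 1351 bp, and chr1:75361681-75363030 and chr3:142819041-142820390 at 1350 bp. Only 19 eligible intervals were up to 20 bp narrower than 4 steps and 1 was up to 20 bp wider, against the 138 of exactly 4 steps. With a threshold 1 bp higher the set fell to 118 intervals, 5.51% of the eligible ones.

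**Figure D1:**
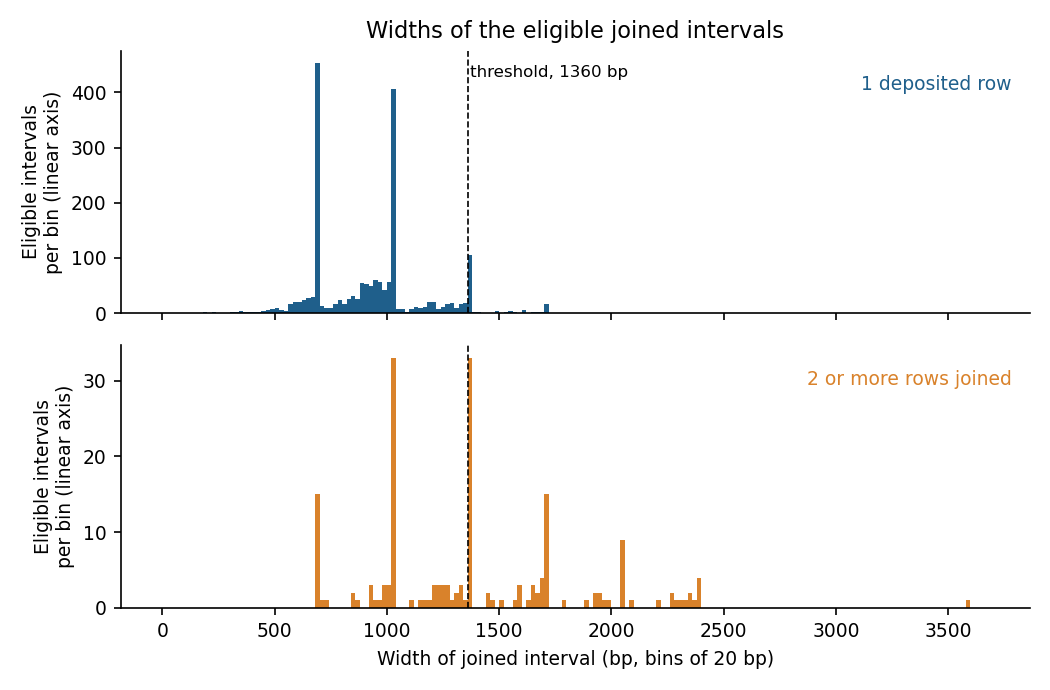
Number of eligible joined intervals (vertical axes, linear) by width in bp (horizontal axis, bins of 20 bp), in the upper panel for intervals of 1 deposited row and in the lower panel for intervals joined from 2 or more rows; the dashed line marks the threshold of 4 steps of 340 bp. The columns at 4 and 5 steps (1700 bp) include 138 and 32 intervals over both panels, and nearly all intervals of 2040 bp or wider are in the lower panel.

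The widest broad interval, chr19:23207402-23210991, measured 3590 bp and stood 1210 bp clear of the next. It was made of 4 deposited rows of 880, 630, 1570 and 480 bp, each separated from the next by 10 bp. Neither of its outer boundaries lay on the 340 bp grid. Its nearest neighbour in the list was a single row 4.82 kb away, at chr19:23201642-23202581, and its window of 1 Mb held 5 rows. At 1570 bp the third of its rows would have been broad without any joining.

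Below it, 4 intervals of 2380 bp were listed, each of 2 rows. They were chr2:152520261-152522640 (rows of 1260 and 1039 bp), chr4:125604841-125607220 (1011 and 1359 bp), chr9:20392521-20394900 (1591 and 779 bp) and chr9:69252561-69254940 (1341 and 1029 bp). The interval on chromosome 2 held an 81 bp gap, the widest gap inside any broad interval, whereas the other 3 held gaps of 10 bp. Only the first chromosome 9 interval contained a row that reached the threshold by itself. Their surroundings differed: the nearest joined interval was 2.04 kb away for chr9:69252561-69254940, 5.44 kb for the chromosome 4 interval, 89.1 kb for the chromosome 2 interval and 308 kb for chr9:20392521-20394900.

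The rest of the 15 widest measured 2089 to 2370 bp. They were chr18:65012421-65014790 (2370 bp), chr6:91438241-91440590 (2350 bp), chr5:96401221-96403560 (2340 bp), chr10:60541132-60543460 (2329 bp) and chr15:79217352-79219660 (2309 bp). Next came chr15:83390441-83392721 (2281 bp), chr5:100217721-100219991 (2271 bp), chr5:65714521-65716790 (2270 bp), chr8:37716272-37718480 (2209 bp) and chr17:27282572-27284660 (2089 bp). All 15 were joined from 2 or more rows, and they lay on 11 chromosomes, with 3 on chromosome 5 and 2 each on chromosomes 9 and 15. In the 10 of this last group every gap was 10 bp, and the narrower row was 839 bp or wider. Another joined interval lay within 10 kb of 4 of the 15.

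**Figure D2:**
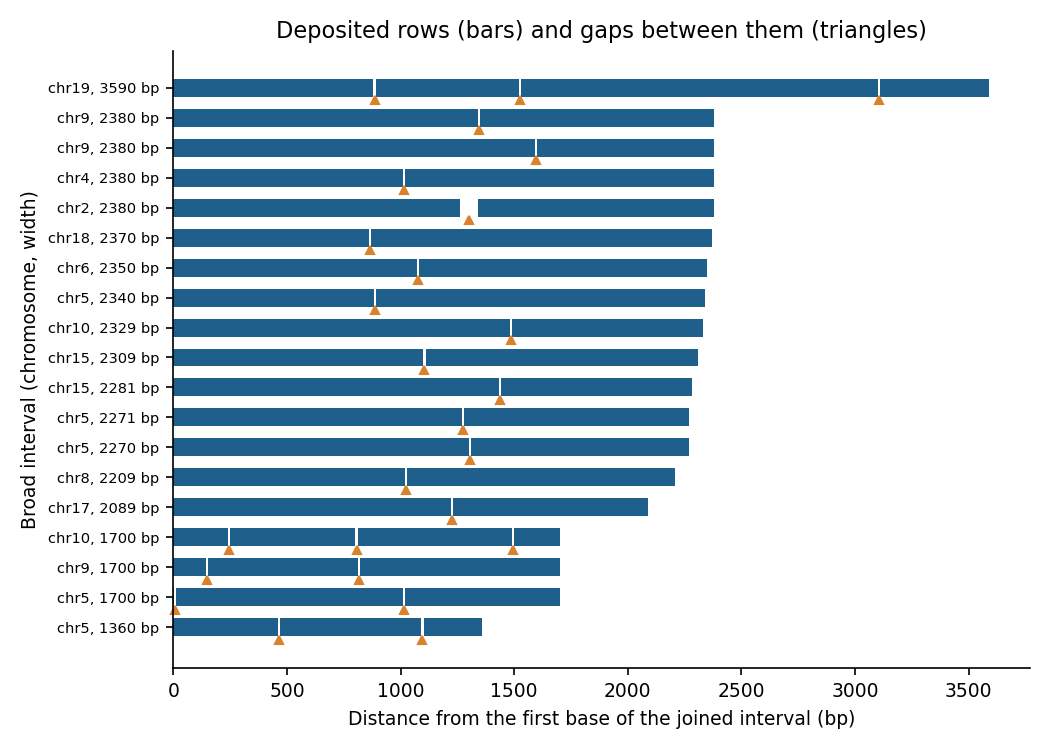
Each horizontal line is 1 broad interval, drawn by distance in bp from its first base, for the 15 widest and the 5 made of 3 or more rows (19 intervals, since 1 is in both sets); bars are deposited rows and triangles mark the gaps between them. The interval of 3590 bp on chromosome 19 has 4 rows, and the 81 bp gap of the 2380 bp interval on chromosome 2 is the only gap wide enough to stand out as a space.

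Joining decided membership for a large part of the set. A single deposited row made up 158 of the 256 intervals (61.7%), 93 were joined from 2 rows, 3 from 3 rows and 2 from 4 rows. Of the 98 intervals of 2 or more rows (38.3%, exact 95% interval 32.3 to 44.5%), 92 contained no row as wide as the threshold, so they entered through joining. Without any joining, 164 rows qualified. The share joined from 2 or more rows was 23.9% among intervals of exactly 4 steps (33 of 138), 46.9% among those of 1700 bp (15 of 32) and 96.0% among those of 2040 bp or wider (24 of 25). In eligible intervals from 3 steps to just under 4 it was 8.52% (56 of 657). Joining adds width, so this order follows in part from the rule. The 1 single row of 2040 bp was chr4:150838621-150840660.

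The gaps closed by joining were almost all of 1 size. Of the 105 gaps inside broad intervals, 103 measured 10 bp, 1 measured 11 bp (in chr5:130225781-130227140) and 1 measured 81 bp. The 89 gaps inside narrower eligible intervals all measured 10 bp. No boundary at any of the 105 gaps lay on the 340 bp grid, whereas both outer boundaries did in 61 of the 98 intervals that contain them (62.2%) and 1 outer boundary did in 33. Among single-row broad intervals both boundaries were on the grid in 123 of 158 (77.8%). Over all broad intervals it was 184 of 256 (71.9%), compared with 896 of the 1885 narrower eligible intervals (47.5%). Intervals of exactly 4 steps count heavily in the broad figures, and all of them had both boundaries on the grid. Among the 118 wider intervals both boundaries were on the grid in 46 (39.0%). Leaving out the intervals of exactly 4 steps removes on-grid intervals from the broad side only, so 39.0% has no like share among the narrower ones.

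In the 93 intervals of 2 rows the split tended to fall well inside the interval. The narrower row had a median of 670 bp and the wider a median of 1041 bp. The row at the lower coordinate was the wider one in 50 and the row at the higher coordinate in 43. The gap lay at a median of 53.4% of the way from the first to the last base (quartiles 43.5 and 60.6%), and it was within the middle 33.3% of the interval in 70 of the 93. The narrower row was under 340 bp in 15 of them and under 100 bp in 2.

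The intervals of 3 or more rows held several such slivers at their edges. On chromosome 10, chr10:12557901-12559600 was listed as rows of 241, 550, 680 and 199 bp. On chromosome 9, chr9:119830961-119832660 was listed as 141, 660 and 879 bp, and on chromosome 5 chr5:145217741-145219100 as 461, 620 and 259 bp. The interval chr5:100279601-100281300 began with a row of 1 bp, followed by rows of 1000 and 679 bp. A second row of 1 bp opened the 2-row interval chr4:117333661-117335020. The chromosome 19 interval of 3590 bp was the only one of the 5 whose outer boundaries both lay off the grid. In the other 4 both were on it, with widths of 5 steps in 3 and 4 steps in 1.

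Chromosomes contributed unequally to the set. Chromosome 9 held the most broad intervals, 25 of 156 eligible (16.0%), followed by chromosome 5 with 23 of 220 (10.5%), and chromosomes 3, 4 and 10 with 22 each. Chromosome 15 had the highest share, 20 of 107 (18.7%, exact 95% interval 11.8 to 27.4%), and chromosome 10 was next with 22 of 130 (16.9%). The lowest autosomal shares were 3 of 62 on chromosome 14 (4.84%, 1.01 to 13.5%) and 11 of 170 on chromosome 2 (6.47%, 3.27 to 11.3%). On 17 of the 18 chromosomes the 95% interval contained the overall 12.0%, chromosome 2 being the exception, below it. The order depended in part on intervals of exactly 4 steps. They were 14 of the 20 on chromosome 15 and 7 of the 11 on chromosome 2. In the whole set they were 138 of 256 (53.9%). With a threshold 1 bp higher, chromosome 15 kept 6 of 107 (5.61%), near the overall 5.51%, and the highest share was that of chromosome 10, at 12 of 130 (9.23%). Chromosomes 14 and 2 still had the lowest shares, 1 of 62 (1.61%) and 4 of 170 (2.35%, 0.645 to 5.91%). With these smaller counts the 95% interval contained the overall value on all 18 chromosomes. Intervals that contain the overall value do not show that the chromosomes were alike.

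Chromosome X held 1 broad interval among 25 eligible, chrX:6998272-6999920, of 1649 bp in 2 rows of 920 and 719 bp. Chromosome 14 had no broad interval wider than 1400 bp (chr14:19581282-19582681, a single row). On chromosome 1 the widest broad interval was chr1:66749481-66751180, a single row of 1700 bp. Its nearest neighbour was 6.62 Mb away, the greatest distance for any broad interval. The widest elsewhere were chr3:61450921-61452960 and chr16:91435521-91437560 at 2040 bp, chr12:81177802-81179760 at 1959 bp and chr13:43313281-43314980 at 1700 bp, each of 2 rows. Splitting into rows was also uneven, beside the 38.3% of the whole set that was joined from 2 or more rows. The count was 9 of 13 broad intervals on chromosome 19 and 5 of 7 on chromosome 13. It was 4 of 22 on chromosome 4 and 1 of 11 on chromosome 1. These counts are small, and the difference was not tested.

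**Figure D3:**
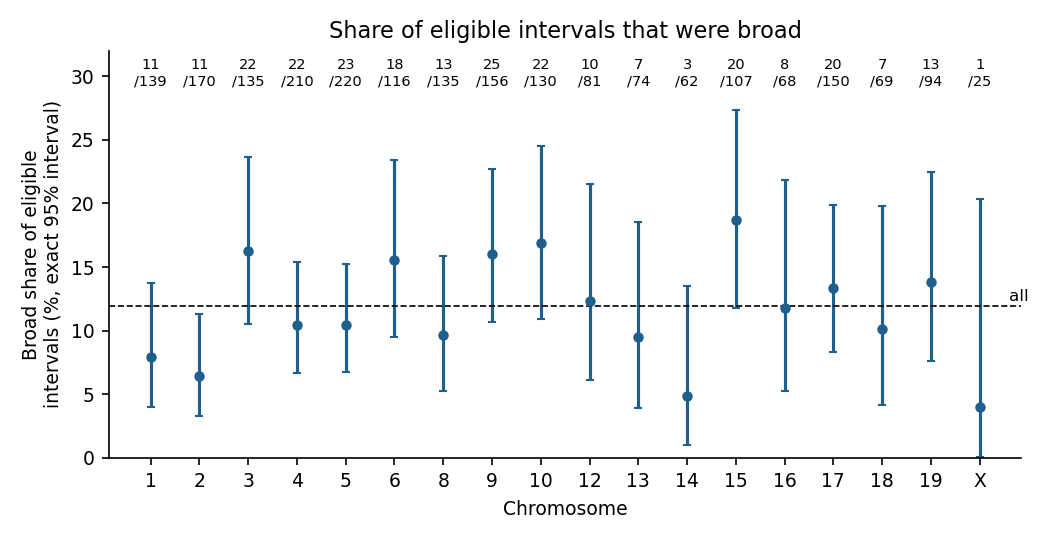
Share of eligible joined intervals that were broad, in percent (vertical axis), by chromosome (horizontal axis); points are shares, bars exact 95% intervals for counting error, numbers at the top broad and eligible intervals, and the dashed line the overall 12.0%. Chromosome 15 is highest at 18.7% and the interval of chromosome 2 does not reach the line; with a threshold 1 bp higher, not drawn, chromosome 15 is at 5.61% and every interval holds the overall 5.51%.

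Few broad intervals had another joined interval within 10 kb, and the same was true of narrower ones. The gap to the nearest joined interval had a median of 88.6 kb (95% interval of the median 68.7 to 116 kb), compared with 115 kb (104 to 126 kb) for narrower eligible intervals, so the intervals of the medians overlapped. Another joined interval lay within 10 kb of 24 of the 256 (9.38%, exact 95% interval 6.10 to 13.6%) and of 161 of the 1885 narrower ones (8.54%, 7.32 to 9.89%). At 1 kb the order was the other way round, with 4 broad (1.56%) and 60 narrower intervals (3.18%), as it was at 5 kb (4.30 against 5.52%). At 20 and 100 kb the broad share was again the higher, 16.8 against 14.5% and 52.7 against 46.6%. The order at 10 kb also turned with window boundaries moved by 0.5 Mb (8.16 against 9.20%). Without joining it was 12.2 against 24.1%. In that setting the pieces of 1 interval count as each other's neighbours, and most are under the threshold, so that turn is in part built in. Single-row and joined broad intervals gave 8.86% and 10.2% at 10 kb. Both sets exclude the densest windows, which limits how many close neighbours either can have.

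The neighbours of the 24 were mostly under the threshold. The 25 neighbours within 10 kb had a median width of 3 steps, which was also the upper quartile of eligible intervals. In 19 of these cases the neighbour was under the threshold and in 6 it was broad, beside a broad share of 12.0% among eligible intervals. The 6 were 3 pairs, each counted from both sides, and the difference was not tested. The closest neighbours were 340 bp away, the smallest gap that was not joined, beside chr9:119830961-119832660, chr6:120003341-120004700 and chr10:41964161-41965520. A broad interval had another broad interval within 10 kb in 3 places. A pair of these, each with a gap of 2040 bp, was on chromosome 9: chr9:56870781-56872140 with chr9:56874181-56875880 (4 and 5 steps, single rows), and chr9:69252561-69254940 with chr9:69256981-69258340 (7 and 4 steps, 2 rows each). The other was chr15:79217352-79219660 with chr15:79229521-79230880 (2309 bp and 4 steps), 9.86 kb apart.

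The next closest pairs were 16.0 kb apart on chromosome 2, between 2 intervals of 4 steps that start at 167176981 and 167194321, and 16.7 kb apart on chromosome 17, between an interval of 4 steps and one of 1690 bp that start at 47074021 and 47092041. Across the 238 pairs of successive broad intervals on the same chromosome, the median gap was 3.40 Mb and the largest 89.8 Mb. In 37 of these 238 pairs no other joined interval lay between them, beside a broad share of 12.0% among eligible intervals. Joined intervals in the windows left out counted as lying between, whereas the 12.0% does not include them. Whether 37 pairs were more than such a share would give was not tested.

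**Figure D4:**
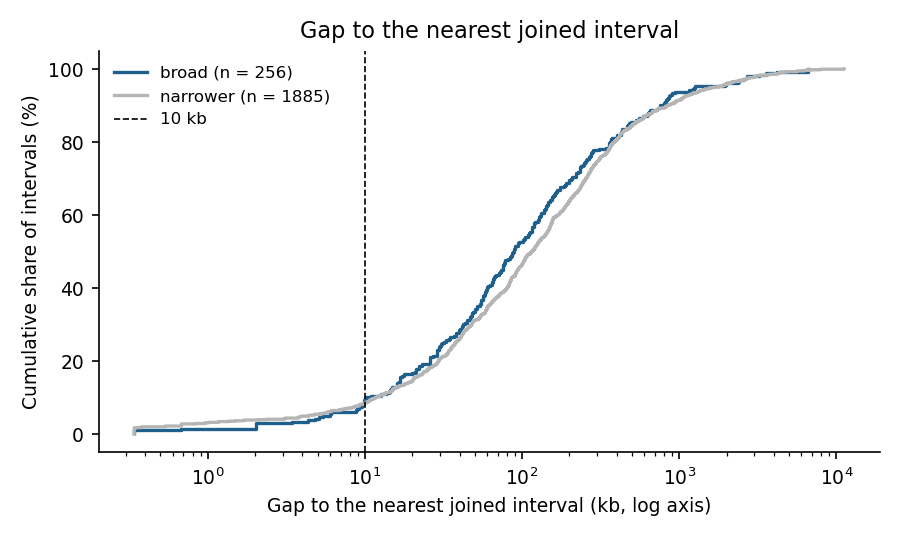
Cumulative share of intervals in percent (vertical axis) by the gap to the nearest joined interval in kb (horizontal log axis), for the 256 broad and the 1885 narrower eligible intervals; the dashed line marks 10 kb. The curves lie close together, at 9.38 and 8.54% by 10 kb, with medians of 88.6 and 115 kb.

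At the scale of 1 Mb, the 256 intervals fell in 212 of the 898 windows that held any eligible interval. A single broad interval was found in 171 windows, 2 in 39, 3 in 1 and 4 in 1. The window with 4 ran from 56 to 57 Mb on chromosome 9, where 4 of 5 joined intervals were broad and lay within 213 kb of each other. The window with 3 ran from 77 to 78 Mb on chromosome 10 and held 7 joined intervals.

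The broad share was higher in fuller windows when fullness was counted in deposited rows, and the spread was smaller when it was counted otherwise. In windows with 1 row 27 of 355 eligible intervals were broad (7.61%, exact 95% interval 5.07 to 10.9%), in windows of 2 to 3 rows 12.0%, of 4 to 6 rows 12.3%, and of 7 to 9 rows 58 of 375 (15.5%, 12.0 to 19.5%). An interval joined from several rows adds those rows to its own window, and it cannot be in a window of 1 row. Counted in joined intervals, the shares were 11.3% for 1, 11.3% for 2 to 3, 11.6% for 4 to 5 and 14.2% for 6 to 9, with overlapping 95% intervals. Among intervals of 1 row alone they were 7.61, 7.07, 8.24 and 9.95%. In each of these counts the fullest windows had the highest share.

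**Figure D5:**
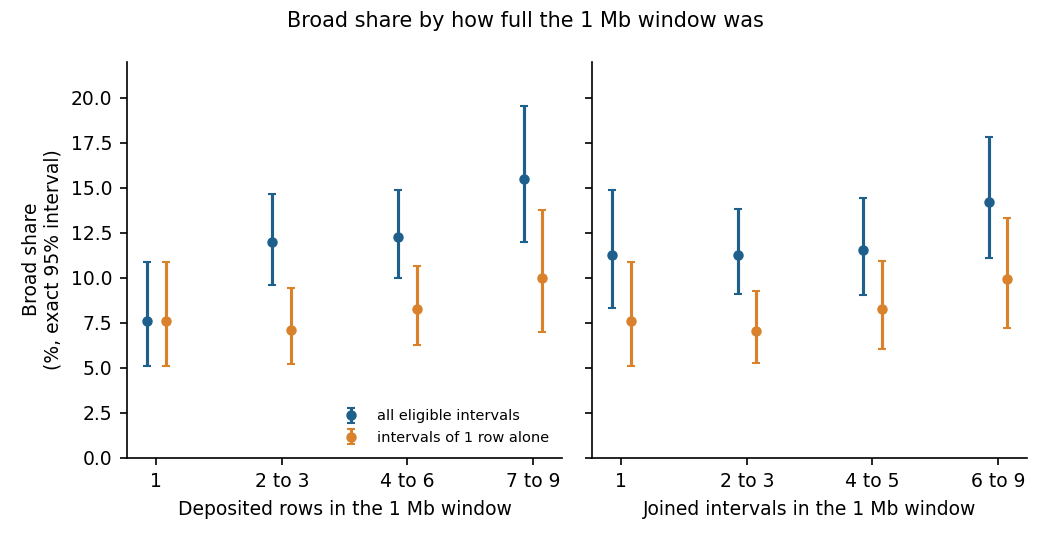
Share of intervals that were broad, in percent (vertical axis), by the number of deposited rows (left) or joined intervals (right) in the same 1 Mb window (horizontal axis), for all eligible intervals and for intervals of 1 row alone; bars are exact 95% intervals for counting error. Counted in rows the share of all eligible intervals goes from 7.61 to 15.5%, and counted in joined intervals from 11.3 to 14.2%.

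Intervals of the same width also occurred in the parts of the list that the rule leaves out. In windows of 10 or more rows on the chromosomes used, 77 of 452 joined intervals reached the threshold (17.0%, exact 95% interval 13.7 to 20.8%). Among those of 1 row alone 46 of 399 did (11.5%, 8.57 to 15.1%). The like shares of eligible intervals of 1 row alone were lower. They were 7.61, 7.12, 8.27 and 10.0% in windows of 1, 2 to 3, 4 to 6 and 7 to 9 rows. The difference was not tested. On chromosome 7 the count was 38 of 237 (16.0%) and on chromosome 11 it was 66 of 348 (19.0%). Over the whole list 437 of 3178 joined intervals (13.8%) were this wide, so the 256 are 58.6% of them.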

How the data were processed

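Per the labels' protocols, chromatin from fixed HT22 cells was sonicated and pulled down for sequencing. The submitters' processing notes name CASAVA, FastQC, Bowtie, bedtools and the build mm8, without versions or roles. The sources used here do not give the peak caller, its thresholds or the use of replicates, inputs and the BirA-only line. Per the file headers, the authors deposited positions in base pairs (chromosome, start, end), read as 1-based and inclusive, with width as end minus start plus 1. Depth is unknown.

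Rows were sorted, joined (gaps under 340 bp) and filtered (width of 1360 bp or more, which is 4 steps of 340 bp) with Python 3.11.15 and pandas 2.3.3, and scipy 1.17.1 gave exact intervals. The joining step, tested on simulated data of 2400 intervals, recovered all of them. The simulated gaps were 10 bp inside intervals and wider than 340 bp between them. Gaps of exactly 340 bp were therefore not tested. Named intervals followed a rule: the 15 widest, the widest per chromosome, those of 3 or more rows, the 5 closest pairs, and the 5 on either side of the threshold. Others, such as the 11 bp gap, the rows of 1 bp, the single row of 2040 bp, near neighbours and windows, were picked with their values in view. The members and lists were chosen with earlier results of these data known. A gene table and promoter sequences of GRCm38, another build, were not used.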

Additional observations from a re-analysis of the deposited data

How the results depend on the processing

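Depth, replicates and the control signal could not be examined, and with no library values there was no test to change. The set depends on its thresholds. Its number moved from 256 to 164 without joining, 913 at a threshold of 3 steps of 340 bp, 66 at 5 steps, and 118 both at 1 bp above 4 steps and with a 0-based reading, which shortens each interval by 1 bp; in the other 8 settings it was 198 to 333. With a 0-based reading and a threshold 1 bp lower the same 256 intervals returned, with a median of 1359 bp. The share of eligible intervals was 7.02% without joining, 42.6% at 3 steps, 3.08% at 5 steps and 5.51% at 1 bp above 4 steps or 0-based. The median width was 1099 bp at 3 steps, 1805 bp at 5 steps, 1700 bp at 1 bp above 4 steps and 1699 bp when 0-based. The share of 2 or more rows was 0% without joining (by construction), 44.7% with gaps under 1000 bp joined, 16.9% at 3 steps, 71.2% at 5 steps and 55.1% at 1 bp above 4 steps or 0-based. The share with another joined interval within 10 kb was 15.2% at 5 steps and 18.0% with no window left out, and at distances of 5 and 20 kb it was 4.30 and 16.8%. Beside narrower intervals its order turned at 5 kb (4.30 against 5.52%) and with window boundaries moved by 0.5 Mb (8.16 against 9.20%). It also turned without joining (12.2 against 24.1%), in part by construction, since unjoined pieces of 1 interval are each other's neighbours. The thresholds 1 bp above and 20 bp under 4 steps, and the lower one with a 0-based reading, were chosen after seeing the data. No paired analysis was possible because libraries have no columns in the file, which also prevented leaving out a replicate.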
